A study of Mus with 2 samples.

Results

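Prostaglandin and leukotriene synthesis was followed through 10 genes, namely Pla2g4a, Ptgs1, Ptgs2, Ptges, Tbxas1, Hpgds, Alox5, Alox5ap, Lta4h and Alox15, in mouse bone marrow derived macrophages (BMDMs). They were taken as every non-control probe of the array whose transcript accession belongs to one of these symbols in RefSeq. This gave 11 probes and 20 spots, for 10 of the 20060 genes named by a probe with a value on both arrays. The cells came from male C57BL6/J mice, given in the methods as 10 weeks old, and were grown from the marrow of femurs and tibias for 7 d with 10 ng/mL of M-CSF, the growth factor of macrophages. Both cultures then received 10 ng/mL of IL-4, the cytokine of M2 polarization, for 24 h, one with 10 µM GW4064, a synthetic agonist of the farnesoid X receptor (FXR), and the other with its solvent DMSO. The comparison asks what GW4064 changes in macrophages under M2 conditions, and there was 1 array for each condition, both on 1 slide. Whether both cultures were grown from the marrow of the same mouse, and whether mice were pooled, is not given in the sources used here. The text description of the GW4064 sample repeats the DMSO wording, while its title, source and treatment labels name GW4064.

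Eicosanoids are local lipid signals made from arachidonic acid, which a phospholipase cuts from membrane lipids. Cyclooxygenases turn it into the prostaglandin precursor that terminal synthases make into prostaglandin E2, prostaglandin D2, prostacyclin or thromboxane, while 5-lipoxygenase with its helper protein makes the leukotrienes and 12/15-lipoxygenase makes hydroxylated fatty acids. Macrophages are a major source of these lipids, and IL-4 is a classical inducer of 12/15-lipoxygenase in several kinds of macrophages.

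Each value below is the Cy3 intensity of a probe after the scanner software had subtracted the background, called its signal, without scaling between the arrays. Each difference is the log2 of the signal with GW4064 minus that with DMSO after each array had been shifted so that its 75th percentile (1209 on the DMSO array, 1265 on the GW4064 array) lay at 0. A change of 2-fold is 1 on this scale. Replicate error and p-values cannot be had from a single array of each culture, so differences are given by their size. The software's own error model gives at least 10% for each spot, or about 0.20 on the log2 difference, and covers the reading of the spot but not the spread between cultures. Among 244 probes printed in copies and well above background on both arrays, the SD of the log2 difference over the copies had a median of 0.079.

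Of the 10 genes, 9 were measured, that is, well above background with at least 1 of the cultures, and 1 of these, Ptgs1, was 2-fold or more higher with GW4064, while 0 were 2-fold or more lower. Among all 13532 measured genes, 2.04% were higher and 2.71% lower by 2-fold or more. At 1.5-fold the counts of the 10 genes were the same, 1 higher and 0 lower, against 4.39% and 5.56% of all genes. In direction 7 of the 9 were higher and 2 were lower, with a median log2 difference of 0.23 against 0.0068 over all genes, of which 6985 were higher and 6521 lower. Ptgs2 is among the 7, but a gene dim only with DMSO could not be counted as lower. With only probes well above background on both arrays, which leaves Ptgs2 out, the median was 0.23 against 0.0047 over all genes. Apart from Ptgs1, and from Ptgs2, which was dim with DMSO, the measured genes lay inside the central 95% of all genes, from -1.05 to 0.88.

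**Figure D1:**
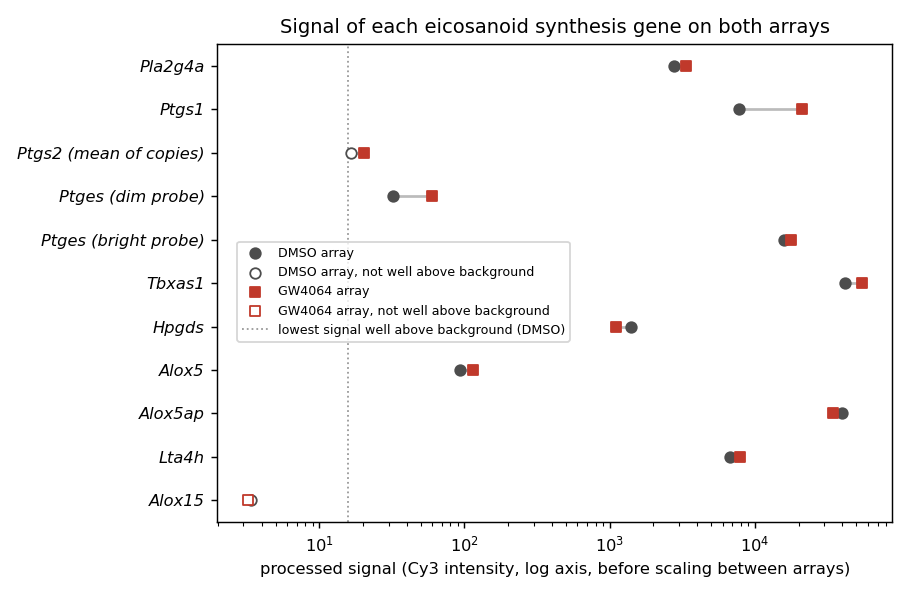
Signal of each probe of the 10 genes (Cy3 intensity, log axis, before scaling between the arrays) on the DMSO array (circles) and the GW4064 array (squares), with open symbols for dim probes and a dotted line at 15.7, the lowest signal well above background on the DMSO array. Ptgs1 has the widest gap, from 7814 to 21081, and Alox15 lies under the dotted line on both arrays.

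Arachidonate release is represented by Pla2g4a, which encodes the cytosolic phospholipase A2 that frees arachidonic acid from membranes (NM_008869). Its signal was 2755 with DMSO and 3372 with GW4064, a log2 difference of 0.23 or 1.17-fold. This is about the size of the error that the software assigns to a single pair of spots, 0.20.

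The cyclooxygenases stood apart from each other in signal and in how well they were measured. Ptgs1, the constitutive cyclooxygenase COX-1 (NM_008969), had a signal of 7814 with DMSO and 21081 with GW4064, a log2 difference of 1.37 (modelled error 0.20) or 2.58-fold higher. Before any correction the spot itself read 9069.5 with DMSO and 24461 with GW4064, so the gap was present in the unprocessed intensity. It was the 79th largest rise among the 21707 probes that both arrays measured above background. Among the 6851 such probes with a DMSO signal from 1000 to 10000 the log2 difference had an SD of 0.22 across probes, and copies of a probe in this range differed by a median SD of 0.072. The value rests on 1 spot per array. Within 300 µm of that spot, 1 other spot differed 8-fold or more between the arrays. The 36 spots there that were well above background on both arrays had a median log2 difference of -0.0071.

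**Figure D2:**
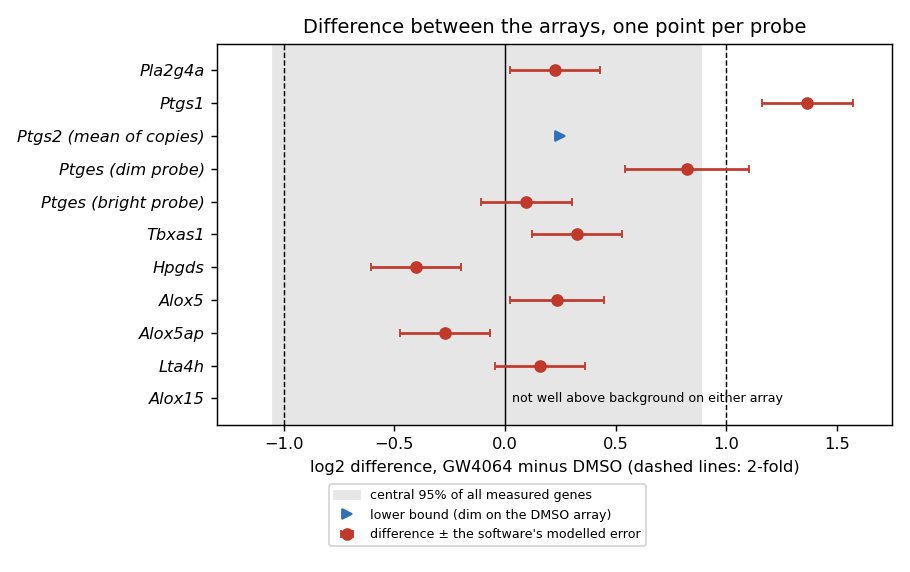
Log2 difference (GW4064 minus DMSO) of each probe with the software's modelled error as bars, the central 95% of all 13532 measured genes as a grey band from -1.05 to 0.88, and dashed lines at 2-fold. Ptgs1 at 1.37 lies outside the band, the other probes measured on both arrays lie inside it, and Alox15 has no value. The triangle, labelled as a lower bound, is Ptgs2, which was dim with DMSO and whose value is as read.

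Ptgs2, the inducible cyclooxygenase COX-2 (NM_011198), was near background on both arrays. Its probe was printed 10 times, and 1 of 10 copies was well above background with DMSO and 7 of 8 unmarked copies with GW4064. The mean signal was 16.4 with DMSO and 20.4 with GW4064, 1.19-fold higher once the arrays were scaled. The dim DMSO value already exceeded the lowest signal well above background, 15.7, and was kept as it stood. The difference is therefore a reading and not a minimum. Over the 8 copies left unmarked on both arrays, DMSO signals ran from 13.9 through a median of 16.4 to 20.3, and GW4064 signals from 16.6 through 19.99 to 24.9. The ranges overlapped, with 4 of the 8 GW4064 copies above the highest DMSO copy. Taken as read, with the dim DMSO side as it stood, these copies differed by 0.23 ± 0.19 (log2, SD, n = 8 copies of 1 probe, which are not biological replicates), and 6 of the 8 were higher with GW4064. These figures describe the spread of the copies and set no upper limit on the change of the transcript. A copy that the software marked as an outlier on the GW4064 array read 40.2 there and 15.1 with DMSO, and had 5 spots that differed 8-fold or more within 300 µm. Its uncorrected intensity had a median of 49.75 over the DMSO copies and 52.75 over the unmarked GW4064 copies, and 7 and 6 of the 153 negative control spots of the respective array read as high or higher. Because the DMSO side was dim, the size of the Ptgs2 difference is not known, and it cannot be set against that of Ptgs1.

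**Figure D3:**
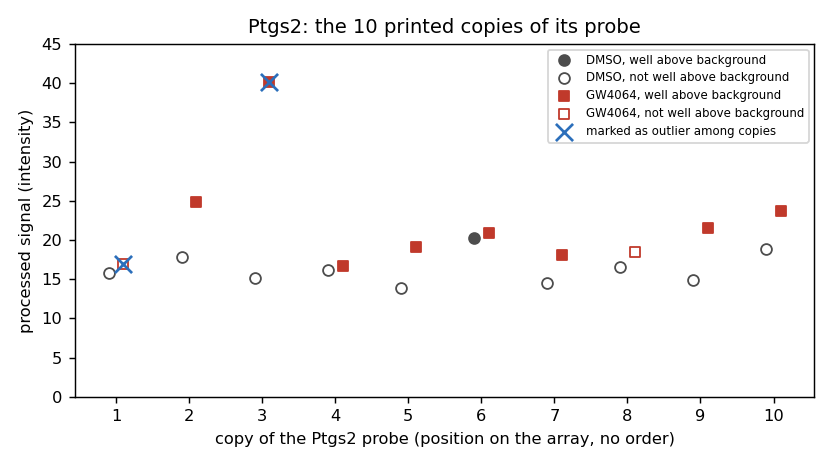
Signal of each of the 10 copies of the Ptgs2 probe on the DMSO array and the GW4064 array, side by side for each position, with a cross over copies that the software marked as outliers. The unmarked copies run from 13.9 to 20.3 with DMSO and from 16.6 to 24.9 with GW4064, and the marked copy at 40.2 stands above all others.

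The terminal synthases did not move as a group. Ptges, the inducible prostaglandin E synthase mPGES-1 (NM_022415), has a pair of probes that differed in size. The bright one read 15935 with DMSO and 17823 with GW4064, a log2 difference of 0.096 (modelled error 0.20). The dim one read 32.3 and 59.7, a log2 difference of 0.82 (modelled error 0.28) or 1.77-fold. Both were higher with GW4064, and their mean was 0.46, but in the range of signals of the dim probe, from 20 to 100, copies of a probe differed by a median SD of 0.23, with a 90th percentile of 0.40 over 39 probes. Thromboxane A synthase, Tbxas1 (NM_011539), read 41610 with DMSO and 54526 with GW4064, a log2 difference of 0.32 or 1.25-fold higher. Hematopoietic prostaglandin D synthase, Hpgds (NM_019455), had the largest decrease of the 9, with a signal of 1404 with DMSO and 1113 with GW4064, a log2 difference of -0.40 or 1.32-fold lower. Tbxas1 and Hpgds thus differed in opposite directions, each by less than 1.5-fold.

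In the leukotriene branch all 3 genes differed by 1.21-fold or less. Alox5, the 5-lipoxygenase that makes leukotriene A4 (NM_009662), read 92.4 with DMSO and 113.8 with GW4064, a log2 difference of 0.23 (modelled error 0.21). Its single spot lay among 4 spots that differed 8-fold or more within 300 µm. The 32 spots around it that were well above background on both arrays had a median log2 difference of -0.036. Alox5ap, the helper protein FLAP that presents arachidonic acid to the 5-lipoxygenase (NM_009663), read 39698 with DMSO and 34400 with GW4064, a log2 difference of -0.27 or 1.21-fold lower. Lta4h, the hydrolase that makes leukotriene B4 (NM_008517), read 6792 and 7924, a log2 difference of 0.16 or 1.11-fold higher. The 5-lipoxygenase and its helper protein therefore had differences of opposite sign, and the difference of Lta4h was smaller than its modelled error.

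Alox15, the 12/15-lipoxygenase (NM_009660), was dim on both arrays, with signals of 3.40 with DMSO and 3.23 with GW4064. Its uncorrected intensity was 30.0 with DMSO and 33.5 with GW4064, where the negative control spots had medians of 28.5 and 27.0, and 59 and 20 of the 153 control spots read as high or higher. Its transcript was thus not detectable in these IL-4 treated BMDMs with this probe, and no difference is given.

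**Figure D4:**
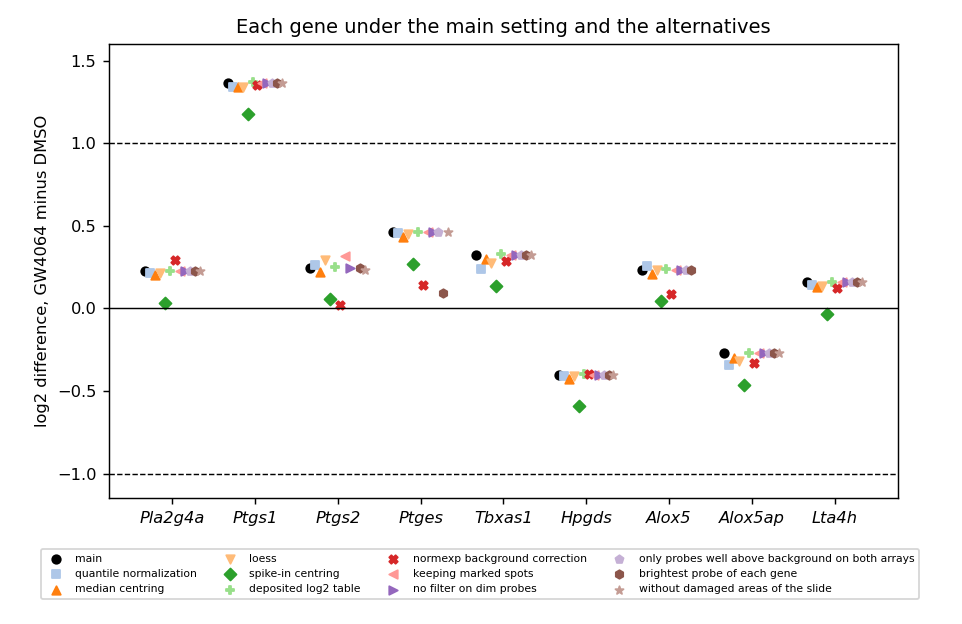
Log2 difference (GW4064 minus DMSO) of the 9 measured genes under the reported setting and 11 other ways of scaling, correcting or filtering the arrays, with dashed lines at 2-fold. Ptgs1 stays between 1.18 and 1.37, Hpgds and Alox5ap stay below 0, and Lta4h passes to -0.034 when the arrays are centred on the spike-in RNA.

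The direction and size of these differences were compared across the 11 other settings. Ptgs1 was 2-fold or more higher under every one of them, from 1.18 to 1.37. Hpgds ran from -0.59 to -0.40 and Alox5ap from -0.46 to -0.27. Tbxas1 ran from 0.13 to 0.33, Pla2g4a from 0.035 to 0.29, and Ptges from 0.096 to 0.46. Alox5 ran from 0.043 to 0.26 and Ptgs2 from 0.023 to 0.32, each over 10 settings that gave a value. Lta4h was the only one to change sign, and it did so under spike-in centring, which lowered the median of all genes to -0.18 and that of the 9 genes to 0.043.

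Several of the 10 genes are also expressed in cells that a marrow culture can hold, and since the RNA came from whole cultures, fewer cells of a type and less RNA per cell cannot be told apart. Of 8 macrophage markers 7 had a probe, all 7 were well above background, and their summed level, in units of the 75th percentile signal, was 232 with DMSO and 215 with GW4064. This sum, over the brightest probe of each gene, was carried by Csf1r (-0.13 at that probe) and Adgre1 (-0.30, at a spot in a damaged area). Over all their probes Csf1r and Adgre1 differed by -0.24 and -0.25, while the other 5 were higher, and the median of the 7 was 0.058. All 6 probed markers of IL-4 treated macrophages were well above background, with a summed level of 217 and 323. Of these, 5 were higher, Arg1 by 3.82, Mgl2 by 0.99, Retnla by 0.91, Ccl24 by 0.21 and Chil3 by 0.066. Mrc1 was lower (-0.34). Platelets and megakaryocytes, which are rich in Ptgs1 and Tbxas1, were read through 6 markers, of which 5 were lower with GW4064, 3 of them 2-fold or more, and Pf4 was higher by 0.26. Among the lower ones, Itga2b (35.4 with DMSO and 16.8 with GW4064) and Gp9 (43.7 and 19.8) were dim with GW4064, and Treml1 differed by only -0.0044. The summed level of that list was 22.7 with DMSO and 26.4 with GW4064, most of it from Pf4, and the median of the 6 was -0.85. The platelet chemokine Ppbp read 454 and 150, a log2 difference of -1.66. The part of platelet or megakaryocyte RNA in the differences of Ptgs1 and Tbxas1 was not tested.

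Mast cells, a source of Hpgds, had a summed marker level of 0.218 with DMSO and 0.210 with GW4064 over 8 markers. The defining genes Cpa3, Fcer1a, Hdc and Cma1 were not well above background on either array. Of the 4 that were measured, Mcpt4 (-0.91) and Kit (-0.74) were lower and Tpsb2 (0.51) and Gata2 (0.17) higher, with a median of -0.28, all at signals of 117 or less. Neutrophils, a source of Alox5 and Alox5ap, were read through 7 of 8 markers, since Ly6g had no probe, all lower with GW4064, with a median log2 difference of -0.79 and a summed level of 11.5 with DMSO and 7.11 with GW4064. Of 6 eosinophil markers, Epx and Il5ra were not well above background, and the summed level was 3.74 and 3.65. Prg2 (-1.47, with 1 spot in a damaged area) and Ear1 (-0.72) were lower and Siglecf (0.10) and Ccr3 (0.30) higher, with a median of -0.31. Stromal cells, which can make prostaglandins and prostacyclin, were read through 9 markers, of which 8 were measured and all 8 were lower, with a summed level of 30.8 and 16.4. Among the 8, Thy1 (18.7 with DMSO and 10.9 with GW4064) was dim with GW4064, so it could not be counted as higher. T cell, B cell and dendritic cell markers had summed levels of 1.39 and 1.31, of 0.282 and 0.204, and of 154 and 126. The dendritic cell sum was nearly all Itgax (-0.30, at a spot in a damaged area), which macrophages also express. Zbtb46 (0.44) and Flt3, at least 4.94-fold higher at a spot in a damaged area, were higher, Ccr7 (-0.60) was lower, and the median of the 4 was 0.075. The part of mast cell, neutrophil, eosinophil, stromal and dendritic cell RNA in the differences of the 10 genes and of those below was not tested. Nr1h4, which encodes FXR, the receptor of GW4064, was dim on both arrays, with signals of 3.46 and 3.24.

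The rest of the pathway was read through 79 further genes, of which 59 were measured. Here 20 were higher and 39 lower, with a median log2 difference of -0.10. Past 2-fold there was 1 higher and 3 lower, against 2.04% and 2.71% of all genes. The 3 lower ones, Pla2g10, Hpgd and Alox12, were dim with GW4064, so they could not be counted as higher. With only probes well above background on both arrays, 1 of 54 was higher and 0 were lower, against 107 and 164 of 12578 over all genes. With genes dim on 1 array taken at the value computed for them, none of the 6 roles in this list held more than 1 gene past 2-fold in a direction.

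**Figure D5:**
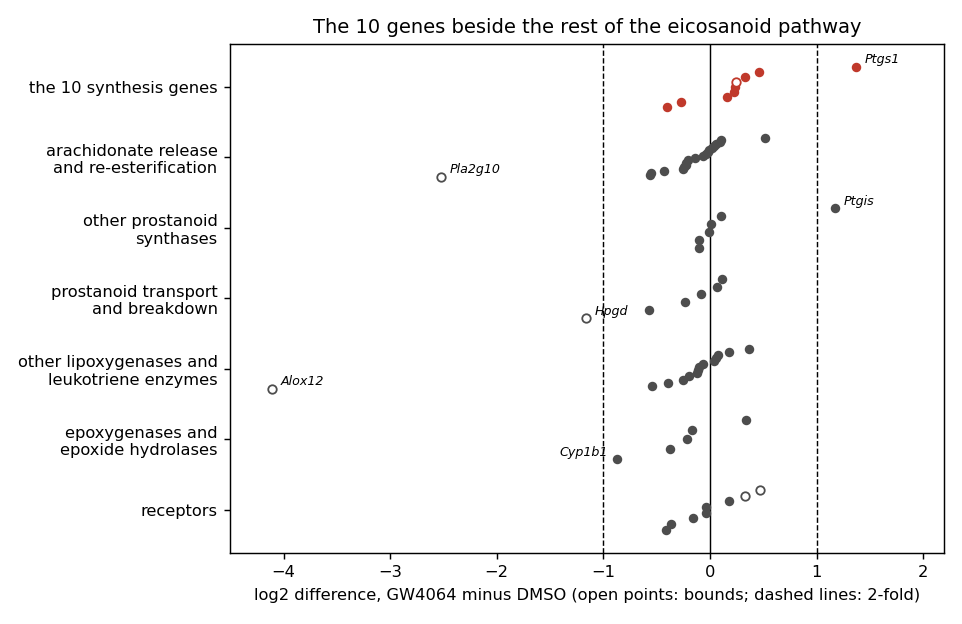
Log2 difference (GW4064 minus DMSO) of each measured gene, with the 10 synthesis genes in the top row and the 59 other measured eicosanoid genes below by role. Open points, labelled as bounds, are genes dim on a single array, some of them, such as Ptgs2 and Alox12, with the dim value as it stood. Dashed lines mark 2-fold. Ptgs1 and Ptgis are the only points right of the 2-fold line, and of the points on the left, Pla2g10 and Alox12 come from spots in damaged areas of the slide.

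Of 26 genes of arachidonate release and re-esterification, 20 were measured, 6 higher and 14 lower, with a median of -0.10. Daglb, a diacylglycerol lipase, differed by -0.25 over 10 copies of its probe, the lysosomal phospholipase Pla2g15 by -0.20 and the triglyceride lipase Pnpla2 by -0.0090. The only Pla2g15 spot lay in a damaged area. Pla2g10, a secreted phospholipase, read 83.1 with DMSO and 4.50 with GW4064, at least 5.75-fold lower, but its only spot had 6 spots that differed 8-fold or more within 300 µm. No value of Pla2g10 was left when such areas were excluded. The minimum did not hold with another background correction (normexp), where its log2 difference was -0.81.

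Of 8 prostanoid synthases outside the 10 genes, 6 were measured, 3 higher and 3 lower. Ptgis, the prostacyclin synthase that takes the product of the cyclooxygenases, read 40.7 with DMSO and 96.2 with GW4064, a log2 difference of 1.17 (modelled error 0.26) or 2.26-fold higher. Its signal was low, in the range where copies of a probe had a median SD of 0.23, and the value was 0.56 with another background correction (normexp) and 0.98 under spike-in centring. The aldose reductase Akr1b3, which can make prostaglandin F2α, differed by -0.11, the cytosolic prostaglandin E synthase Ptges3 by 0.11 over its 4 probes, and the prostamide synthase Prxl2b by -0.012. Cbr1, a carbonyl reductase that acts on prostaglandin E2, had no value because its spot was marked as non-uniform, and differed by 0.61 when marked spots were kept, and was named here after its value had been seen.

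All 6 genes of prostanoid transport and breakdown were measured, 2 higher and 4 lower. Hpgd, the 15-hydroxyprostaglandin dehydrogenase that inactivates prostaglandins, was lower at both of its probes. One read 43.1 with DMSO and 16.3 with GW4064, 2.77-fold lower with the dim GW4064 value as it stood. The other read 26.3 and 9.78, at least 1.82-fold lower. No spot that differed 8-fold or more lay near either. The mean over the probes was -1.17, which became -0.43 under the normexp correction, and both probes were dim. The reductases Cbr3, Ptgr1 and Ptgr2, which act on prostaglandins or their breakdown products, differed by -0.087, 0.11 and 0.062.

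Of 17 other lipoxygenase and leukotriene genes, 14 were measured, 5 higher and 9 lower, with a median of -0.11. Gpx4, the peroxidase that reduces lipid hydroperoxides, differed by 0.37, the microsomal glutathione transferase Mgst1 by -0.20, and Dpep2, the dipeptidase that turns leukotriene D4 into leukotriene E4, by -0.54 or 1.45-fold lower. The only Gpx4 spot lay in a damaged area. A probe of Alox12, the platelet 12-lipoxygenase, read 270 with DMSO and 16.4 with GW4064, 17.3-fold lower with the dim GW4064 value as it stood. That spot lay in a damaged area with 4 spots that differed 8-fold or more, and the other Alox12 probe was dim on both arrays, with signals of 3.67 and 3.35. The log2 difference of Alox12, -4.11 here, was -1.95 under normexp. Without a filter on dim probes, as a mean over both probes, it was -2.15.

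All 5 genes of the epoxygenase branch were measured, 1 higher and 4 lower, with a median of -0.21. Cyp1b1, a cytochrome P450 that also oxidizes arachidonic acid, read 675 with DMSO and 385 with GW4064, a log2 difference of -0.88 or 1.83-fold lower. The epoxide hydrolase Ephx1 differed by -0.17 and the epoxygenase Cyp2j6 by -0.21, each over a pair of probes.

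Of 17 prostanoid and leukotriene receptors, 8 were measured, 3 higher and 5 lower. Of these, 6 were well above background on both arrays and differed by less than 1.5-fold. The other 2 were dim with DMSO, so they could not be counted as lower, and were named here after their values had been seen. Fpr2, a receptor of lipoxin A4, had signals of 7.52 and 22.9, at least 1.39-fold higher. The leukotriene B4 receptor Ltb4r2 read 18.5 and 24.4, 1.26-fold higher with the dim DMSO value as it stood. The prostacyclin receptor Ptgir read 1789 with DMSO and 1827 with GW4064, a log2 difference of -0.036 once the arrays were scaled. Cysltr1, the receptor of cysteinyl leukotrienes, differed by 0.26 and 0.097 at its probes, and Ltb4r1, the receptor of leukotriene B4, by -0.16. The other 9 receptors, among them the thromboxane receptor Tbxa2r and the prostaglandin D2 receptors Ptgdr and Ptgdr2, were not well above background on either array.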

How the data were processed

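Each array was a 1-colour Agilent 44K mouse array hybridised with Cy3-labelled RNA. The authors deposited the scanner output of Agilent Feature Extraction 10.7.1.1, per the labels and file headers, whose processed intensity had the background subtracted and trends within the array removed, without scaling between the arrays. A log2 table deposited beside it held values whose differences equalled those computed here for 39200 probes within 2.78e-06 apart from a constant of 0.0022. The scale of that table is log2 with a 75th percentile shift, and the baseline of each probe is not known from these arrays (column medians 0.035 and -0.051).

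The log2 of the processed intensity minus the 75th percentile of each array was computed. Spots marked as non-uniform (215 with DMSO, 30 with GW4064) or as outliers among copies (195 and 179) were left out, and 0 were saturated. A probe was well above background if over 50% of its kept copies were, which held for 57.4% of probes with DMSO and 58.5% with GW4064. Where a probe was dim on 1 array, its value there was raised to the lowest one well above background (signals of 15.7 and 15.1), which is written as "at least N-fold". This is a minimum only against that level and with this background correction. A difference that would then have crossed 0 was set to 0, so a probe dim on 1 array was never counted as higher on that array. A dim value that already exceeded this was kept as it stood, and such a difference is not a minimum. Probes dim on both arrays were left out. A gene is the mean over its measured probes. Damaged areas are spots that have, within 300 µm, at least 2 others with an 8-fold or larger difference, and held 16.5% of the spots.

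Probes were given symbols through the RefSeq transcripts of GRCm38.p6. These named 26445 of the 39200 probes with a value on both arrays. The array was designed on another build, so no coordinates are given, and no sequence or promoter was analysed here. The members, gene lists and alternatives were chosen with earlier results of these data known. The genes named are the 10 members and, of the further list, every gene 1.5-fold or more higher or lower and the 3 with the highest signal in each role. No test was made, since each condition has a single array, and precision is limited by the number of arrays. Slide and scan had 1 level each and could not be compared as batches. The calculation was tested on simulated data with changes planted only in probes well above background. That simulation marked no spots and made no probe dim on 1 array alone. It did not test the handling of dim or marked spots, or the noise at low signals. Normexp was run with limma 3.58.1 in R 4.3.3, the loess with statsmodels 0.14.6, the figures with matplotlib 3.10.9, and all else in Python 3.11.15 with pandas 2.3.3 and numpy 2.4.6.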

Additional observations from a re-analysis of the deposited data

How the results depend on the processing

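No paired analysis was possible because only 1 array was made per condition. The count of the 10 genes at 2-fold, 1 higher and 0 lower, was the same under all 11 other settings (quantile normalization, median centring, loess, spike-in centring, the deposited log2 table, normexp, marked spots kept, no filter or a stricter one on dim probes, brightest probe and leaving out damaged areas) and became 0 higher at 4-fold. Their median of 0.23 became 0.043 under spike-in centring and 0.12 under normexp. Of the 59 other eicosanoid genes, with 1 higher, 3 lower and a median of -0.10, spike-in centring left 0 higher and a median of -0.29, normexp 0 higher and 1 lower, no filter on dim probes 3 higher and 7 lower, probes well above background on both arrays 0 lower, the slide without damaged areas 1 lower, and a 4-fold threshold 0 higher. Over all genes, 276 were higher and 367 lower, against 72 and 64 with normexp, 698 and 767 without a filter, 107 and 164 among probes that passed on both arrays, 168 and 202 without damaged areas, 594 and 752 at 1.5-fold and 65 and 79 at 4-fold. Spike-in centring gave 211 and 522 and moved the median of all genes from 0.0068 to -0.18. Among single genes, Ptgs2 became 0.056 and 0.023 under spike-in centring and normexp, and Ptges 0.27 and 0.14, and 0.096 by its brightest probe. The cause of these shifts was not tested. At signals under 20, copies of a probe had a median SD of 0.34, which limits Ptgs2 and all dim probes. Without replicate arrays, no difference here has an error that covers the cultures.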
